A study of Cucumis melo with 12 samples.

Results

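The genes described here are melon leaf transcripts that were scarce at the start of a chilling treatment and rose at least 4-fold over 12 h in both varieties studied. They were chosen from the measured values. On the log2(FPKM + 1) scale, the mean of the libraries at 12 h had to lie at least 2 above the mean at 0 h in variety 162 and also in variety 13-5A, and the mean over the 6 libraries at 0 h had to lie below 5 FPKM. FPKM are fragments per kilobase of gene, scaled to the size of the library, so levels can be compared between genes. Differences between libraries depend on that scaling. Another scaling is given for several splits, and counts of genes whose libraries do not overlap rest on FPKM alone. Of 21691 genes in the table, 122 met the rule, which is 0.562%. They made up 44.9% of the 272 genes that rose by 2 or more in both varieties. The other 150 started at 5 FPKM or above.

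Leaves of melon (Cucumis melo) were sampled from variety 162, which the labels call tolerant of chilling, and from variety 13-5A, which they call sensitive. Each variety was sampled after 12 h at 4 °C and at 0 h of that treatment, with 3 libraries for each of the 4 combinations. The labels name 4 °C for the 0 h leaves too, and 0 h is taken as the start of the exposure. The labels name no leaves kept out of the cold until 12 h, so chilling and elapsed time cannot be told apart. Nothing in the labels ties the libraries to separate plants, and the p-values below measure only the spread between these libraries. A leaf holds many cell types, so a higher level per cell and more cells that express a gene cannot be told apart either.

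Plants that meet cold switch on a large set of transcripts within hours. In Arabidopsis the transcription factor ICE1 and related proteins induce the CBF (DREB1) genes, whose products bind the promoters of cold-regulated (COR) genes, and some of these encode proteins that protect membranes and enzymes. Many leaf transcripts also follow the circadian clock, and several CBF genes do so themselves. The deposited identifiers carry no names and 0 of them matched the reference table at hand, so it is not known here which of the 122 genes belong to these pathways, and no leaf marker could be checked.

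None of the 122 genes was silent at 0 h, so the label "switched on" fits a rise from low levels and not one from an absence of transcript. Reads were found in all 6 libraries at 0 h for 117 genes, and the other 5 had at least 1 library without a read. Summed over the 6 libraries, the reads at 0 h had a median of 596 per gene and a minimum of 25, against a median of 9326 and a minimum of 765 at 12 h. The mean level at 12 h ran from 5.09 to 233 FPKM with a median of 25.7, against 0.0778 to 4.91 FPKM with a median of 1.92 at 0 h. At 12 h, 108 genes stood at 10 FPKM or more, 21 at 50 or more and 5 at 100 or more. In 162 the median gene stood at the 70.6th percentile of the 15592 tested genes at 12 h, against percentile 9.33 at 0 h. In 13-5A these percentiles were 68.7 at 12 h and 8.86 at 0 h. Among the tested genes, the group thus moved from the lowest part of the range to the upper part in both varieties, which follows in direction from the rule. The tested genes average 1 FPKM or more over all 12 libraries. The 30 of the 122 genes with a mean under 1 FPKM at 0 h passed this filter through their levels at 12 h. In the whole table of 21691 genes, 10245 lay under 5 FPKM at 0 h, so the low percentiles at 0 h hold for the tested genes only.

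**Figure D1:**
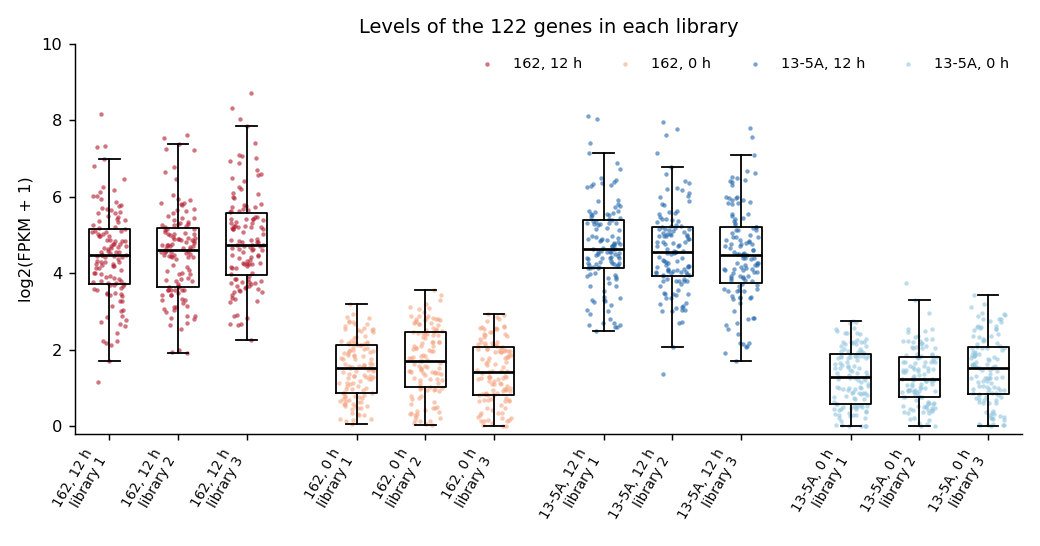
Levels of the 122 genes in each of the 12 libraries, as log2(FPKM + 1); points are genes, boxes span the quartiles with the median as a bar, and whiskers reach the furthest gene within 1.5 box lengths. The library medians lie between 21.1 and 25.6 FPKM at 12 h and between 1.34 and 2.26 FPKM at 0 h.

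Expressed as a ratio of group means, the median rise was 11.6-fold in 162 (quartiles 7.94 and 21) and 15.6-fold in 13-5A (quartiles 9.9 and 28). A rise of 10-fold or more was reached by 73 genes in 162, by 89 in 13-5A and by 60 in both. The median differences in log2(FPKM + 1) were 2.81 in 162 and 3.12 in 13-5A, and adding 1 makes the change of the lowest genes look smaller than their ratios. Over all genes tested the median differences were -0.12 in 162 and 0.07 in 13-5A. By limma with Benjamini-Hochberg adjustment, a gene was called at an adjusted p under 0.05 and a log2 difference of at least 1. All 122 genes were called higher in 162, where 9.24% of all genes tested were, and in 13-5A, where 12.6% were. None was called lower, where 10.6% of all genes in 162 and 9.06% in 13-5A were. In each of the 122 every library at 12 h lay above every library at 0 h, as was the case for 22.1% of all genes in 162 and for 34.8% in 13-5A. These counts restate the rule and carry no test.

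The rise was also read in libraries left out of the choice, each against the other time of its variety, whose libraries did take part. These readings are therefore partly fixed by the choice and carry no test. The rule was applied 12 times with a library left out, and the chosen genes were then read in that library. Between 114 and 140 genes were chosen, of which 110 to 121 were among the 122. In the library left out, the median difference ran from 2.64 to 3.16 on the log2(FPKM + 1) scale, and 78.6% to 98.4% of the genes reached 2 there. Of all these readings, 1 fell below 0, at -0.01, in replicate 2 of 162 at 12 h. The lowest share, 78.6%, belonged to replicate 2 of 162 at 0 h, in which many of the genes stood higher than in the other libraries of that group.

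The genes nearest to the limits had the following values. Just inside the limit of 2, MELO3C013690.2 rose by 2.005 in 162 and MELO3C014425.2 by 2.002 in 13-5A, while MELO3C014489.2 with 1.999 in 162 and MELO3C000150.2 with 1.975 in 13-5A fell just outside. The mean level at 0 h was 4.911 FPKM in MELO3C025165.2, the highest kept, and 5.065 FPKM in MELO3C003730.2, the lowest left out. Values on the 2 sides of each limit lay close together.

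On the log2(FPKM + 1) scale, the 2 genes with the largest mean rise over both varieties were also the most abundant at 12 h. MELO3C026001.2 stood at 284, 165 and 261 FPKM in the libraries of 162 at 12 h, against 1.48, 5.72 and 2.49 FPKM at 0 h. In 13-5A it stood at 169, 140 and 187 FPKM at 12 h, against 2.58, 1.35 and 6.75 FPKM at 0 h. The rise was 73.2-fold in 162 and 46.6-fold in 13-5A, the times did not overlap, and the varieties did at both times. These ratios became 119-fold without replicate 2 of 162 at 0 h and 84.4-fold without replicate 3 of 13-5A at 0 h. MELO3C011223.2 was the most abundant at 12 h, with 157, 195 and 317 FPKM in 162, against 1.68, 9.68 and 2.83 FPKM at 0 h. In 13-5A it reached 261, 246 and 221 FPKM at 12 h, against 5.62, 0.826 and 8.11 FPKM at 0 h. The libraries of 13-5A lay close together at 12 h and far apart at 0 h, where replicate 2 was the lowest.

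MELO3C009418.2, MELO3C025165.2 and MELO3C019040.2 also exceeded 100 FPKM at 12 h. The first had the widest spread of all 122 genes, with 111, 149 and 421 FPKM in 162 at 12 h, against 1.08, 5.84 and 1.7 FPKM at 0 h. In 13-5A it had 118, 218 and 63 FPKM at 12 h, against 1.01, 12.4 and 0.607 FPKM at 0 h. In log2(FPKM + 1) its libraries had an SD of 1.17 around their group means, and replicate 2 stood highest in both groups at 0 h. MELO3C025165.2 was far steadier, with 127, 150 and 129 FPKM in 162 at 12 h, against 5.6, 5.49 and 4.55 FPKM at 0 h. In 13-5A it stood at 276, 196 and 135 FPKM at 12 h, against 4.27, 4.61 and 4.95 FPKM at 0 h. Its SD of 0.28 lay under the median of the 122 genes, 0.39. MELO3C019040.2, picked after its values were known, had 161, 186 and 103 FPKM in 162 at 12 h, against 8.23, 4.94 and 6.57 FPKM at 0 h. In 13-5A it had 76.9, 108 and 85.7 FPKM at 12 h, against 1.85, 3.7 and 2.07 FPKM at 0 h, and at 0 h all libraries of 162 lay above those of 13-5A.

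**Figure D2:**
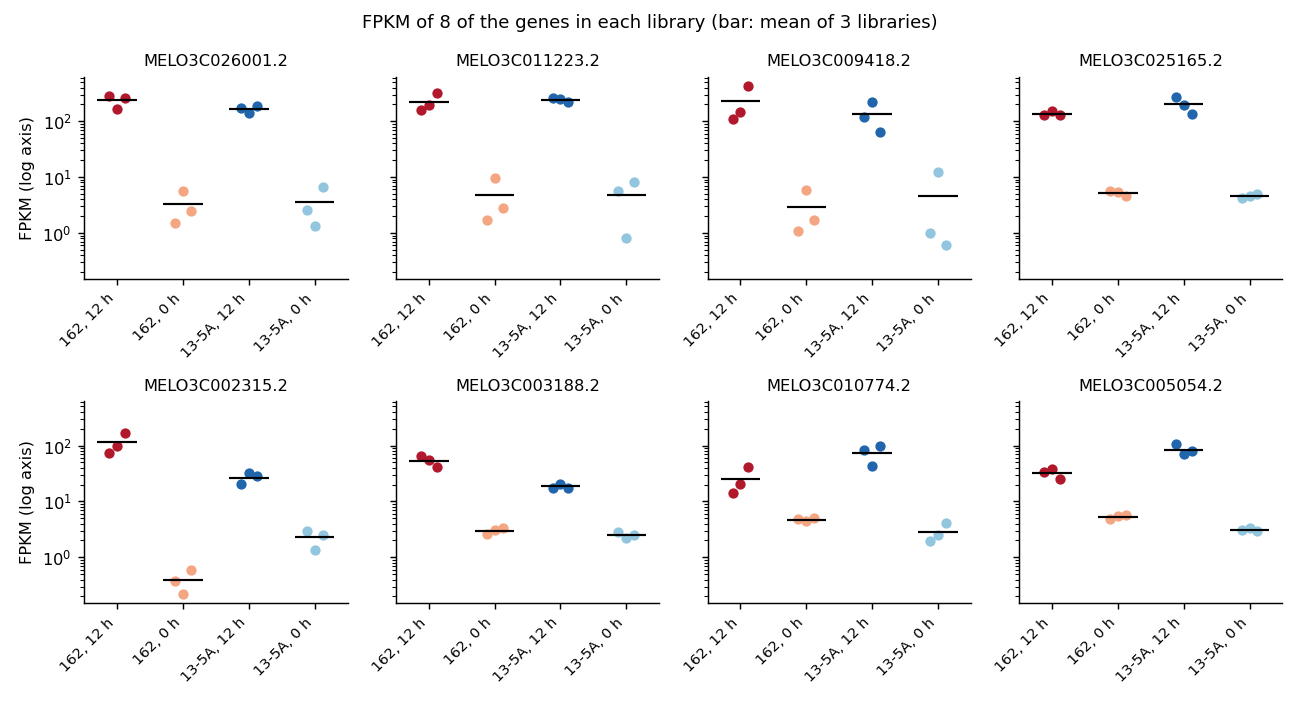
FPKM of 8 of the genes in each library on a log axis, with points for libraries and a bar at the mean of 3. The upper row shows the 4 genes with the highest means at 12 h, whose libraries overlap between varieties at 12 h; the lower row shows 4 genes whose change differed between varieties, with MELO3C002315.2 and MELO3C003188.2 higher in 162 at 12 h and MELO3C010774.2 and MELO3C005054.2 lower.

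At the other end, several genes started from a handful of reads. MELO3C015921.2 had the lowest mean at 0 h. It stood at 5.15, 8.24 and 5.27 FPKM in 162 at 12 h, against 0.211, 0.107 and 0.0886 FPKM at 0 h, and at 5.45, 3.22 and 3.22 FPKM in 13-5A at 12 h, against 0.0191, 0.0309 and 0.00972 FPKM at 0 h. The last 3 values rest on 6 reads in all, so the 199-fold rise in 13-5A is imprecise. MELO3C026491.2 reached 5.64, 5.99 and 12.7 FPKM in 162 at 12 h, against 0.0456, 0.187 and 0 FPKM at 0 h. In 13-5A it reached 4.61, 7 and 3.54 FPKM at 12 h, against 0.195, 0 and 0.165 FPKM at 0 h. A library without reads was found in each variety.

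A rise of 50-fold or more in both varieties was found in 3 genes, picked after their values were known. MELO3C009162.2 had 15, 20.7 and 52.7 FPKM in 162 at 12 h, against 0.677, 0.0354 and 0.0895 FPKM at 0 h. The rise of 110-fold rests on replicate 1 at 0 h, with 37 reads, since it was 472-fold without that library, and it was 66.7-fold without replicate 3 at 12 h. In 13-5A it had 45.3, 28.8 and 54.9 FPKM at 12 h, against 0, 0.0563 and 0 FPKM at 0 h. The values at 0 h rest on 3 reads in all, so the ratio of reads was 2390 with an exact 95% interval of 817 to 11592 that covers counting error only. MELO3C034563.2 stood at 7.79, 7.35 and 12.8 FPKM in 162 at 12 h, against 0.142, 0.0913 and 0.0231 FPKM at 0 h, and at 16.8, 12.9 and 18.1 FPKM in 13-5A at 12 h, against 0.359, 0.387 and 0.205 FPKM at 0 h. Its libraries did not overlap between varieties, with 162 the lower at both times, but at 12 h the nearest values were 12.8 and 12.9 FPKM. By limma neither difference was called. They were -0.28 at 0 h (SE 0.19, adjusted p = 0.27) and -0.74 at 12 h (SE 0.19, adjusted p = 0.0172), the latter under the least size of 1. The values of 162 at 0 h rest on 11 reads in all. MELO3C005321.2 stood at 35.6, 21.2 and 10.5 FPKM in 162 at 12 h, against 0.567, 0.253 and 0.256 FPKM at 0 h, and at 8.02, 14.5 and 10.5 FPKM in 13-5A at 12 h, against 0.0207, 0.112 and 0.021 FPKM at 0 h. The varieties overlapped at 12 h and were apart at 0 h, where 162 was the higher. By limma that difference at 0 h was not called (0.36, SE 0.33, adjusted p = 0.408). The values of 13-5A at 0 h rest on 7 reads in all. The means of these 3 genes over both varieties at 12 h were 36.2 FPKM for MELO3C009162.2, 12.6 for MELO3C034563.2 and 16.7 for MELO3C005321.2. Far more abundant genes narrowly missed the limit of 50. MELO3C011223.2, with a mean of 233 FPKM at 12 h, rose 47.1-fold in 162 and 50-fold in 13-5A. MELO3C026001.2, with 201 FPKM, rose 73.2-fold in 162 and 46.6-fold in 13-5A. The ratios of MELO3C011223.2 became 98.9-fold in 162 without replicate 2 at 0 h and 75.3-fold in 13-5A without replicate 3 at 0 h. The largest ratios were thus not confined to moderate levels.

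The size of the rise was tied to the starting level only on the scale of ratios. The 30 genes under 1 FPKM at 0 h had median rises of 24.2-fold in 162 and 34.5-fold in 13-5A. For the 44 genes from 1 to 2.5 FPKM the medians were 10.9 and 14.8, and for the 48 genes from 2.5 to 5 FPKM they were 8.11 and 11.8. On the log2(FPKM + 1) scale the medians of these classes lay close together, at 2.82, 2.83 and 2.79 in 162 and at 3.05, 3.10 and 3.20 in 13-5A. The classes ended at different levels, with medians of 11.6, 21.2 and 38.2 FPKM at 12 h. The rule used both the start and the rise, so these values describe the choice.

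Whether the varieties differed in their rise is a comparison the rule did not make, although it set a least size for both rises. The differences in the varieties ran broadly together, with a Pearson r of 0.58 across the 122 genes, which share libraries and were all chosen to be at least 2 in both. In 58 genes the differences lay within 0.5 of each other on the log2(FPKM + 1) scale and in 21 they were more than 1 apart. The rise was larger in 162 in 52 genes, or 42.6%, where 35.1% of all genes tested lay on that side, and larger in 13-5A in 70. Under median-ratio scaling it was again 52 genes, where 51.2% of all genes lay on that side, so which way the group leaned relative to all genes depends on the scaling. The median of the 162 effect minus the 13-5A effect was -0.17, close to the -0.16 of all genes tested. Under median-ratio scaling these medians were -0.10 and 0.01, so the median of the 122 genes was below 0 under both scalings and that of all genes turned to the other side of 0.

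**Figure D3:**
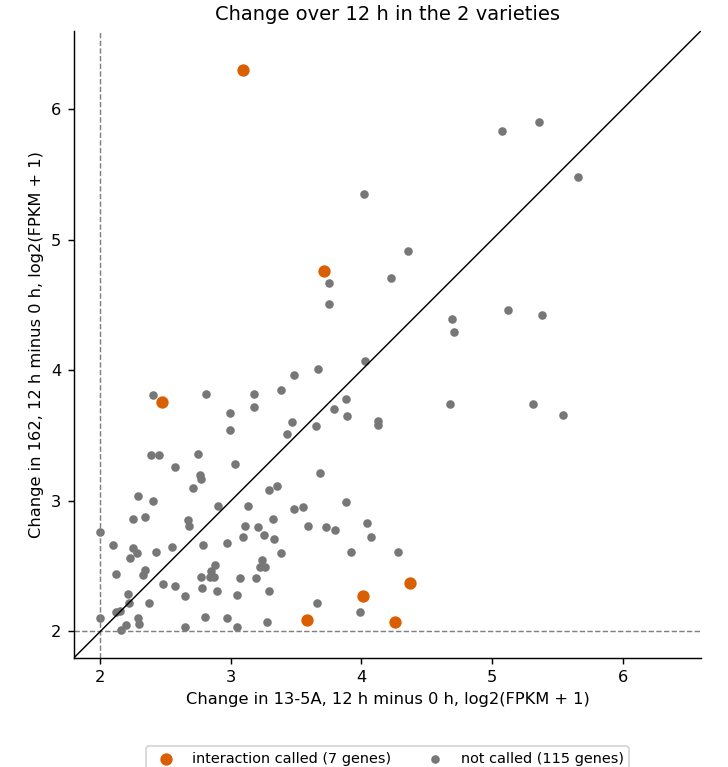
Change over 12 h in 162 against the change in 13-5A for the 122 genes, both in log2(FPKM + 1), with the limits of 2 dashed and the line of equal change solid. Of the 7 genes with a called interaction, 3 lie above the line, led by MELO3C002315.2 at 6.30 in 162 and 3.09 in 13-5A, and 4 lie below it.

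The interaction test of limma called 7 of the 122 genes, or 5.74%, where 3.41% of all genes tested were called. The rise was larger in 162 in 3 of them, where 1.04% of all genes were called that way, and larger in 13-5A in 4, where 2.37% were. Among the 150 genes that rose from 5 FPKM or more, 3 were called, or 2%. MELO3C002315.2 had the largest interaction. It reached 75, 98.8 and 170 FPKM in 162 at 12 h, against 0.37, 0.222 and 0.587 FPKM at 0 h, and 20.1, 31.6 and 28.2 FPKM in 13-5A at 12 h, against 2.93, 1.33 and 2.54 FPKM at 0 h. The 2 varieties changed order, since 162 was lower than 13-5A at 0 h (difference -1.20, SE 0.29, adjusted p = 0.00564) and higher at 12 h (2.00, SE 0.29, adjusted p = 0.000494). The interaction was 3.21 (SE 0.41, adjusted p = 0.00238), and it was called under all 21 alternatives tried. MELO3C003188.2 overlapped between varieties at 0 h and reached 64.4, 55.1 and 41.4 FPKM in 162 at 12 h, against 2.56, 3.08 and 3.31 FPKM at 0 h. In 13-5A it reached 17.5, 20.3 and 17.7 FPKM at 12 h, against 2.84, 2.26 and 2.48 FPKM at 0 h. Its interaction was 1.29 (SE 0.23, adjusted p = 0.0121), with adjusted p from 0.00441 to 0.0534 over the alternatives. The third was MELO3C023609.2, picked after its values were known, with 41.4, 50.4 and 35.8 FPKM in 162 at 12 h and 23.8, 26.1 and 19.7 FPKM in 13-5A at 12 h (interaction 1.05, SE 0.23, adjusted p = 0.0253). This call was lost under 9 of 21 alternatives, with adjusted p from 0.0182 to 0.0802. They were the replicate block, voom and the fits without replicate 2 of 162 at 0 h, replicate 1 or 2 of 162 at 12 h, replicate 1 or 3 of 13-5A at 0 h, or replicate 1 or 3 of 13-5A at 12 h.

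Among the genes that rose more in 13-5A, MELO3C005054.2 was the clearest. It stood at 33, 38.2 and 25.3 FPKM in 162 at 12 h, against 4.86, 5.39 and 5.77 FPKM at 0 h, and at 105, 70.9 and 78.7 FPKM in 13-5A at 12 h, against 3.05, 3.3 and 2.99 FPKM at 0 h. The groups did not overlap at either time, and the higher variety changed from 162 at 0 h to 13-5A at 12 h. By limma only the difference at 12 h was called (-1.38, SE 0.17, adjusted p = 0.000202). That at 0 h was under the least size of 1 (0.62, SE 0.17, adjusted p = 0.0132). The interaction was -2.00 (SE 0.25, adjusted p = 0.00189), again called under all 21 alternatives. MELO3C010774.2 showed a like pattern with more spread, at 14.2, 20.5 and 42 FPKM in 162 at 12 h, against 4.77, 4.46 and 5 FPKM at 0 h. In 13-5A it stood at 82.3, 43.6 and 98 FPKM at 12 h, against 1.98, 2.46 and 4.12 FPKM at 0 h. Its difference between varieties at 0 h was not called (0.61, SE 0.37, adjusted p = 0.197). Its interaction of -2.18 (SE 0.52, adjusted p = 0.0358) was no longer called under 11 of 21 alternatives, with adjusted p from 0.0116 to 0.103 over all of them. Among these were 8 of the 12 fits without a library: replicate 1 or 3 of 162 at 0 h, 1 or 2 of 162 at 12 h, 1 or 2 of 13-5A at 0 h, and 1 or 3 of 13-5A at 12 h. The other two, picked in the same way, were MELO3C025120.2, with 5.37, 5.25 and 6.43 FPKM in 162 and 23.1, 14.2 and 23.4 FPKM in 13-5A at 12 h (interaction -1.73, SE 0.31, adjusted p = 0.0124), and MELO3C002984.2, with 25.2, 26.1 and 25 FPKM in 162 and 46.1, 41.5 and 38.6 FPKM in 13-5A at 12 h (-1.49, SE 0.33, adjusted p = 0.0288). The call of MELO3C025120.2 was lost under 2 of 21 alternatives, the pseudocount of 0.1 and voom (adjusted p from 0.00773 to 0.109 over all). That of MELO3C002984.2 was lost under 6 of 21, the replicate block and the fits without replicate 1 or 2 of 162 at 12 h, replicate 1 of 13-5A at 0 h, or replicate 1 or 2 of 13-5A at 12 h (adjusted p from 0.0134 to 0.0753 over all).

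With limma voom on the recovered reads, 3 of the 7 interactions were still called, those of MELO3C002315.2, MELO3C005054.2 and MELO3C002984.2. Leaving out replicate 1 or 2 of 162 at 12 h left 4 calls each, as did leaving out replicate 1 of 13-5A at 0 h or at 12 h. Leaving out replicate 3 of 162 at 12 h gave 11. Over all genes tested, the calls ran from 175 to 658 in the fits without a library. The calls over all genes with voom are not given here, so the 3 calls cannot be read against a share.

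At 12 h the varieties differed in 21 of the 122 genes, or 17.2%, where 7.9% of all genes tested were called. Of these, 11 were higher in 162, where 4.97% of all genes were, and 10 were lower, where 2.92% were. Median-ratio scaling gave 7 higher, where 3.96% of all genes were under that scaling, and 11 lower, where 3.65% were, so the split depends on the scaling. With a pseudocount of 0.1 the count was 18, or 14.8%, where 10.3% of all genes were called. Without regard to size or p, all libraries of 162 lay above all of 13-5A at 12 h in 17 genes, or 13.9%, where 25.3% of all genes did. All libraries of 13-5A lay above all of 162 in 21 genes, or 17.2%, where 15.9% did. Among the 150 genes that rose from 5 FPKM or more, 22 were called, or 14.7%. The median difference over the 122 genes was 0.13, against 0.07 over all genes, with calls on both sides.

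The largest difference towards 162 was that of MELO3C002315.2, described above. MELO3C008466.2 came next, with 17.2, 15.7 and 61.9 FPKM in 162 and 5.23, 16.3 and 3.29 FPKM in 13-5A at 12 h. The groups overlapped, replicate 3 of 162 stood far above the rest, and the difference of 1.79 (SE 0.53, adjusted p = 0.0315) was no longer called under 5 of 22 alternatives, among them the fits without replicate 3 of 162 (adjusted p = 0.0959) and without replicates 1 and 3 of 13-5A (0.101 and 0.13) at 12 h, with adjusted p from 0.00641 to 0.13 over all of them. Without replicate 3 of 162 the difference was 1.18. In the other direction, MELO3C017947.2 stood at 18.5, 21.7 and 23.3 FPKM in 162 and at 88.7, 74.1 and 90.6 FPKM in 13-5A at 12 h (-1.95, SE 0.17, adjusted p = 1.28e-05). MELO3C016402.2 stood at 28, 19.8 and 24.6 FPKM in 162 and at 140, 67.3 and 88.9 FPKM in 13-5A at 12 h (-1.94, SE 0.36, adjusted p = 0.00295). At 0 h it overlapped between varieties, with 1.2, 1.73 and 0.277 FPKM in 162 and 0.539, 2.49 and 0.593 FPKM in 13-5A. Its interaction of -1.89 missed the threshold (SE 0.51, adjusted p = 0.0561).

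**Figure D4:**
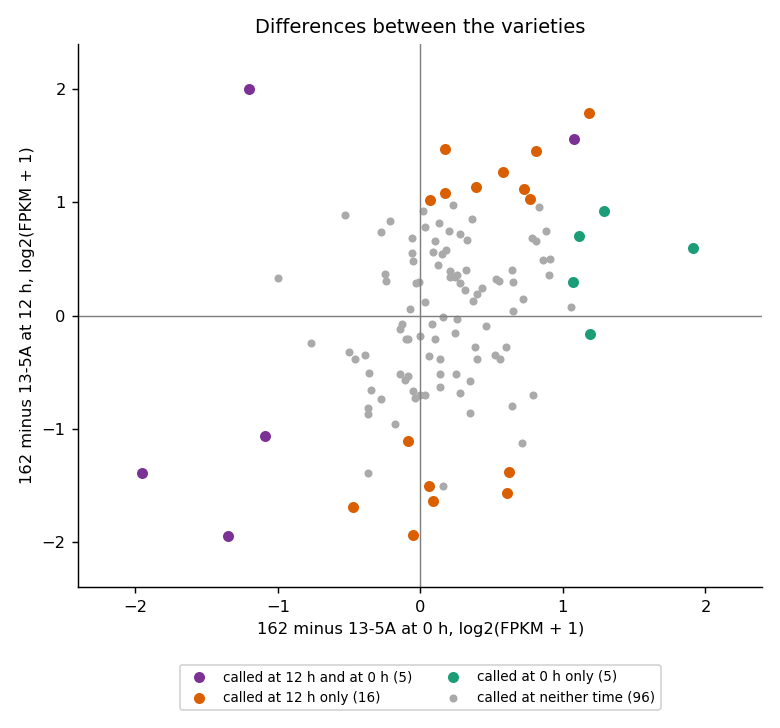
Difference between 162 and 13-5A at 12 h against the same difference at 0 h for the 122 genes, in log2(FPKM + 1), coloured by where limma called it. The 16 genes called at 12 h alone lie above and below 0 at 12 h, and of the 5 called at both times 4 lie on the same side of 0 at both.

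At 0 h the varieties differed in 10 of the 122 genes, or 8.2%, where 14.8% of all genes were called. Of the 10, 6 were higher in 162, where 11.7% of all genes were, and 4 were lower, where 3.08% were. The rule keeps the genes near 0 at that time, where the added 1 compresses differences, and with a pseudocount of 0.1 the count was 24, or 19.7%, where 19% of all genes were called. Median-ratio scaling gave 2 higher, where 6.77% of all genes were under that scaling, and 5 lower, where 6.34% were, and the median over all genes was -0.03 under it and 0.24 by FPKM. All libraries of 162 lay above all of 13-5A at 0 h in 28 genes, or 23%, where 38.2% of all genes did, and the reverse held in 8 genes, or 6.56%, where 14.2% did. MELO3C016783.2 was the furthest above, with 1.98, 8.23 and 5.97 FPKM in 162 at 0 h and 0.218, 1.3 and 0.295 FPKM in 13-5A (1.91, SE 0.38, adjusted p = 0.00206). At 12 h it had 46.4, 33.8 and 25.6 FPKM in 162 and 24.2, 17.4 and 26 FPKM in 13-5A, which overlapped, and the difference of 0.60 was not called (adjusted p = 0.286). MELO3C023484.2 had 3.53, 4.18 and 2.28 FPKM in 162 at 0 h and 0.488, 0.407 and 1.49 FPKM in 13-5A (1.29, SE 0.32, adjusted p = 0.00644). On the other side, MELO3C021091.2 had 0.233, 0.384 and 0.982 FPKM in 162 at 0 h and 5.71, 8.9 and 1.92 FPKM in 13-5A (-1.95, SE 0.38, adjusted p = 0.00187). MELO3C017947.2 had 1.34, 2.66 and 1.71 FPKM in 162 at 0 h and 5.43, 6.78 and 6.65 FPKM in 13-5A (-1.35, SE 0.17, adjusted p = 0.00012).

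Called at both times were 5 genes, listed whole, and 4 of them kept their direction: MELO3C017947.2, MELO3C021091.2 and MELO3C006442.2 were lower in 162 and MELO3C008968.2 was higher. The fifth, MELO3C002315.2, turned round. Of the 21 genes called at 12 h, 16 were not called at 0 h, which does not show that they were alike at the start. The matching counts over all genes tested are not given here. It is therefore not known whether keeping direction, or being called at 12 h alone, was more common in this group than elsewhere. MELO3C006442.2 gave differences of -1.06 at 12 h and -1.09 at 0 h (SE 0.20 each, adjusted p = 0.00303 and 0.00119). With differences so near 1, its call was lost at 12 h without replicate 1 of 162 or replicate 1 of 13-5A at 12 h, and at 0 h without replicate 3 of 13-5A at 0 h. It stood at 4.41, 7.9 and 5.36 FPKM in 162 at 12 h, against 0.547, 0.654 and 0.378 FPKM at 0 h, and at 15.2, 13 and 11.1 FPKM in 13-5A at 12 h, against 1.75, 2.18 and 2.86 FPKM at 0 h, so that 162 lay below 13-5A throughout. MELO3C008968.2 was the reverse, with 87.5, 109 and 63 FPKM in 162 at 12 h, against 1.83, 4 and 1.45 FPKM at 0 h, and 20.7, 30.9 and 34.2 FPKM in 13-5A at 12 h, against 0.933, 0.513 and 0.26 FPKM at 0 h. Its differences were 1.56 at 12 h and 1.08 at 0 h (SE 0.29 each, adjusted p = 0.00295 and 0.0113). The call at 0 h was lost under 3 of 22 alternatives, median-ratio scaling and the fits without replicate 2 of 162 or replicate 3 of 13-5A at 0 h. For MELO3C021091.2 the call at 12 h was lost under 5 of 22, the pseudocount of 0.1 and the fits without replicate 1 or 2 of 162 or replicate 2 or 3 of 13-5A at 12 h.

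The spread between libraries of a group is described here without a test. The SD around group means, in log2(FPKM + 1), had a median of 0.39 over the 122 genes, 0.40 over the 150 genes raised from 5 FPKM or more and 0.23 over all genes tested. Compared at like levels in each group, between the quartiles of the 122 genes, the median SD was 0.40 against 0.19 for other genes in 162 at 12 h and 0.33 against 0.24 in 162 at 0 h. In 13-5A it was 0.32 against 0.15 at 12 h and 0.33 against 0.20 at 0 h. The steadiest gene, MELO3C012218.2 (SD 0.18), had 22.3, 31.6 and 23.4 FPKM in 162 at 12 h, against 4.94, 4.79 and 4.27 FPKM at 0 h, and 20.2, 18.7 and 23.4 FPKM in 13-5A at 12 h, against 3.85, 4.06 and 3.14 FPKM at 0 h.

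In 3 of the 4 groups one library stood highest in more of the genes than the others. Replicate 3 of 162 at 12 h held the highest value of its group in 73 of the 122 genes, or 59.8%, where it did in 40.7% of all genes tested. In 162 at 0 h, replicate 2 was the highest in 63 genes, or 51.6%, where it was in 40.6% of all genes. In 13-5A at 0 h, replicate 3 was the highest in 64 genes, or 52.5%, where it was in 46.7% of all genes. In 13-5A at 12 h no library stood out, with 36.1%, 36.9% and 27% of the 122 genes highest in replicates 1, 2 and 3, where 31.9%, 38.6% and 29.6% of all genes were. The 122 genes together took 0.561%, 0.597% and 0.852% of all FPKM in replicates 1, 2 and 3 of 162 at 12 h, against 0.0386%, 0.0556% and 0.0393% at 0 h. In 13-5A they took 0.689%, 0.631% and 0.578% at 12 h, against 0.0333%, 0.0334% and 0.0435% at 0 h. The group means were 0.67% ± 0.158 in 162 and 0.632% ± 0.0553 in 13-5A at 12 h (SD, n = 3 each), closer to each other than the libraries of 162 were. The median gene deviated by 0.30 from its group mean in replicate 3 of 162 at 12 h, where the median over all genes tested was 0.01. The correlation of these deviations between pairs of the 122 genes had a median of 0.10, against 0.02 between pairs of all genes tested. These pairs share libraries, and the values are a description.

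The rule did not use the length of a gene, which could be solved from the FPKM. The median was 1302 bases for the 122 genes, 1710 for the 150 genes raised from 5 FPKM or more and 1645 for all genes tested. Of the 122, 83 or 68% were shorter than the median of all. Lengths ran from 242 to 4702 bases, and 8 genes lay under 500, or 6.56%, against 5.02% of all genes tested. Of those 8, 3 were among the 4 most abundant genes at 12 h: MELO3C026001.2 with 282 bases, MELO3C025165.2 with 294 and MELO3C011223.2 with 345. A short gene collects few reads per FPKM, and the 0 h values of MELO3C026001.2 rest on 16 to 85 reads per library.

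A few of the genes carried neighbouring identifier numbers. Neighbours in the table were counted for each of the 122 genes in turn, so an identifier next to several of them counts once for each. The 122 made up 0.562% of the whole table, which includes genes that were not tested. Of the 191 neighbours counted, 6 or 3.14% were among the 122 too. They formed 3 pairs, all given here. In the first pair, at 12 h MELO3C017946.2 had 60.4, 53.9 and 89.8 FPKM in 162 and 76, 96.5 and 83.5 FPKM in 13-5A (-0.35, SE 0.32, adjusted p = 0.465), while MELO3C017947.2 was lower in 162 as given above. MELO3C026494.2 and MELO3C026495.2 shared a low value in replicate 3 of 162 at 12 h, with 19.7, 13.7 and 3.79 FPKM in the first and 57.3, 56.2 and 19 FPKM in the second, against the trend of the group in that library. MELO3C015920.2 and MELO3C015921.2 were both highest in replicate 2 of 162 at 12 h, at 16.1 and 8.24 FPKM. Whether these numbers follow positions in the genome, and whether the genes of a pair are copies that share reads, was not tested.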

How the data were processed

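The authors deposited FPKM of 21691 genes in 12 libraries of total RNA (VAHTS Universal V6 kit, paired-end Illumina reads, per the labels' protocols); the aligner, counter and build were not given in the sources used here. Table columns were matched to samples by the labels' descriptions, with 0 columns unused. Library totals (41299369 to 45355323), gene lengths and reads were solved from the FPKM: 100% of values in tested genes were whole within 0.001 reads, and on simulated data 12 of 12 totals were recovered. A unit may be a read or a pair. Within a group, libraries differed by chi-square values per gene of 37.9 to 265, and all were kept as separate replicates.

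Genes averaging 1 FPKM or more (15592) were tested with limma 3.58.1 (R 4.3.3) on log2(FPKM + 1) with an intensity trend, all 12 libraries and 8 residual degrees of freedom, adjusted over all genes; differences are 12 h minus 0 h, 162 minus 13-5A, or the 162 effect minus the 13-5A effect. All 122 genes passed the filter by construction. The model was also run on simulated reads with the same dispersion for every gene and no deviations shared within a library. That run does not cover the wider spread of the 122 genes. Members, lists and rules were chosen with earlier results of these data known. Named genes are, by rule, up to 2 each with the largest rise, highest level at 12 h, lowest at 0 h and largest called differences in each direction, 1 each with the widest and narrowest spread, and those nearest the limits; others are marked. Lists of gene families and leaf markers could not be matched to the identifiers and gave no result. Alternatives were a pseudocount of 0.1, other filters, other scalings, no trend, fits to the compared groups alone, no fold minimum, a replicate block, limma voom on recovered reads and each library left out. Python 3.11.15, numpy 2.4.6, pandas 2.3.3 and matplotlib 3.10.9 were used.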

Additional observations from a re-analysis of the deposited data

Results flagged for a closer look

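The change over 12 h differed between 162 and 13-5A, by the interaction test of limma with Benjamini-Hochberg adjustment, in 7 of the 122 genes, where 3.41% of all genes tested were called. An unadjusted p under 0.05 was found in 31 of the 122, or 25.4%, and in 22.7% of all genes tested. Of the genes named by rule, MELO3C002315.2 (162 effect minus 13-5A effect 3.21, adjusted p = 0.00238) and MELO3C003188.2 (1.29, adjusted p = 0.0121) rose more in 162. MELO3C010774.2 (-2.18, adjusted p = 0.0358) and MELO3C005054.2 (-2.00, adjusted p = 0.00189) rose more in 13-5A. Groups of 3 libraries are too small for a search for single outlying libraries.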

How the results depend on the processing

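The 122 genes were held fixed except where the rule itself was applied again. Among 264 counts and levels recomputed, 239 remained within 1.5 times the count, within 1.1 times the median or within the replicate spread, and 25 moved; 17 of 260 values for the named differences ended a call and 0 turned sign. With a pseudocount of 0.1 the rule chose 298 genes, their share of FPKM at 12 h became 0.845% in 162 and 0.771% in 13-5A, their median within-group SD 0.58, 20 had an adjacent identifier, and 24 of the 122 were called between varieties at 0 h, or 19.7%, where 19% of all genes were. Without the fold minimum the calls over all genes became 7719 in 162 and 7770 in 13-5A over time, and 6523 at 0 h and 3449 at 12 h between varieties, with 19 of the 122 at 0 h, by construction. Voom left 3 of the 7 interactions. The fold minimum and the pseudocount act by construction; for the rest the cause was not tested.

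With 1 library left out at a time there were 4 to 11 interactions among the 122 genes and 175 to 658 over all genes. Between varieties, 7 to 14 of the 122 genes were called at 0 h, against 2170 to 2447 over all genes. At 12 h, 17 to 24 of them were called, against 980 to 1418 over all genes. The rule then chose 114 to 140 genes, with shares of FPKM at 12 h of 0.571% to 0.79% in 162 and 0.594% to 0.722% in 13-5A, a median within-group SD of 0.35 to 0.42, a median length of 1302 to 1386 bases and 5 to 8 genes with adjacent identifiers. Over all genes, interactions fell by more than 1.5 times without replicate 2 of 162 at 12 h (258), without 13-5A replicate 1 or 3 at 0 h (175 or 307) and without 13-5A replicate 1 or 2 at 12 h (225 or 323).

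The replicate numbers were not taken as pairs: in 18 pairs of libraries with the same number the deviations correlated at -0.31 to 0.31, with 2 over 0.1. With a replicate block 5 of the 122 genes had a called interaction, 10 differed between varieties at 0 h and 20 at 12 h. Without the block these counts were 7, 10 and 21. The shares called over all genes with the block are not given here, so the counts cannot be read against them. At the median length of the 122 genes 1 FPKM is about 57.5 reads, which sets the counting error of the lowest values at 0 h.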
